A study of Mus musculus with 75 samples.

Results

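The comparison described here is that of total RNA from CD4 T cells of 4 mice, stimulated against untreated, in the SPEED assay. Its members were chosen from the SPEED count table by their titles: 4 libraries named Stim, none and Input, and 4 named Unstim, none and Input, with the leading number giving the mouse, 8 of the 75 libraries of the series. The series measured translation in activated CD4 T cells of 9 mice, with and without regulatory T cells (Tregs), by 2 assays. In SPEED, cells were separated on sucrose into polysomal and subpolysomal RNA, and Input is the RNA of the same cells taken without that separation. In RiboTag, ribosomes carrying a tag were precipitated, and Input is the RNA before precipitation.

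Both SPEED groups were labelled CD4 Teff, described as CD4+CD25-, and came from spleens and lymph nodes of B6.SJL-PtprcaPepcb/BoyJ mice, which the series' design text calls C57/B6. The stimulated cells were cultured with anti-CD3/CD28 beads at 2.5 T cells per bead, without Tregs and without the drug HHT. The control is labelled Untreated. The sources used here do not give the length of the stimulation, the age of the mice, or whether the untreated cells had been in culture or were taken straight from the animal. The RiboTag libraries compared with them below came from 5 other mice. These were bred from B6.Cg-Tg(Cd4-cre)1Cwi/BfluJ, in which Cre recombinase is driven by Cd4, and B6N.129-Rpl22tm1.1Psam/J, in which Cre switches on a tagged form of the ribosomal protein Rpl22. Their control was cells rested in IL7 and their stimulated cells had the same kind of beads, with 5 libraries in each group.

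A resting T cell is small and quiescent, with a low rate of transcription and translation. Engagement of the T cell receptor (CD3) together with the costimulatory receptor CD28 drives it to leave quiescence, to grow, to build ribosomes and to enter the cell cycle, while part of the programme that holds it at rest is shut down. Antibody-coated beads supply both signals at once, to all T cells whatever their antigen specificity.

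The count tables name genes by Ensembl identifier only, and the reference tables used here pair none of them with a symbol. Genes are therefore described by groups, and 4 are given by identifier. Marker genes of T cells and of other cell types were for the same reason not checked, so the labelled cell type rests on the labels.

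The untreated libraries of mice 1 to 4 held 3965654, 4082788, 3412403 and 4125314 counts, and the stimulated ones 2774767, 3697133, 2257220 and 2871580. More genes had at least 1 count in each stimulated library (14158, 14849, 14188 and 14593) than in the untreated library of the same mouse (13892, 13680, 14173 and 13994), although each stimulated library was smaller. Counts were spread flatly over genes: the single most abundant gene took 0.0984% to 0.139% of a library, and the 100 most abundant took 5.91% to 7.30%. Levels are given below in CPM, the count scaled to the size of its library with TMM (trimmed mean of M values) factors. Because of this scaling, a change in the amount of RNA per cell does not show, and in bulk RNA fewer cells of a type and less of an RNA per cell cannot be told apart.

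Between stimulated and untreated cells, 6758 of the 12428 genes tested were called changed. Of these, 3468 were higher in stimulated cells (27.9% of the genes tested) and 3290 were lower (26.5%) at an adjusted p under 0.05 (edgeR quasi-likelihood test, Benjamini-Hochberg adjustment over all 12428). At least 2-fold changes made up 1848 of the higher and 1674 of the lower. Whether the untreated cells had been in culture is not known, so changes from culture and from stimulation cannot be told apart here. The median log2 fold change over all tested genes was 0.01, a value that the scaling places near 0. Of the 3468 higher genes, 3236 (93.3%) were higher in stimulated than in untreated cells within each of the 4 mice. Of the 3290 lower ones 3021 (91.8%) were lower in each mouse. The genes were called on these same libraries, which favours the same sign in each mouse, so these shares are no separate evidence.

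The change moved a large part of the RNA pool from one set of genes to the other. The sizes are given as summed CPM in percent, which includes the TMM factors and so is not an exact share of counts. In the untreated libraries of mice 1 to 4, the genes that rose held 21.2%, 21.8%, 21.9% and 21.8% by this measure. In the stimulated libraries they held 41.3%, 39.5%, 42.1% and 38.7%. The genes that fell went the other way, from 42.9%, 41.0%, 43.8% and 42.6% to 22.5%, 22.8%, 22.4% and 24.4%. The genes that were not called stayed between 35.4% and 37.4% in all 8 libraries, a spread that includes the TMM factors. Since these genes were chosen on the same libraries, the shares describe the size of the exchange and are no separate evidence of it.

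Part of that exchange came from genes changed by less than 2-fold, and the percentages below include the TMM factors too. The 1620 genes that rose by less than 2-fold went from a mean of 17.7% of the library to 26.6%, and the 1616 that fell by less than 2-fold went from 26.3% to 17.5%. At the other end, 515 genes rose by 16-fold or more by the fitted fold change, yet together they made up only 2.08% of the stimulated libraries. Another 157 fell by 16-fold or more and had held 0.553% of the untreated ones. The fitted fold changes of genes without a count in one group depend on the prior count added in the fit: 243 of the 515 and 60 of the 157 were of that kind. With these set to their lower bound, from a floor of 3 counts summed over the 4 libraries of the empty group, 366 of the 515 and 113 of the 157 were still past 16-fold.

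**Figure D1:**
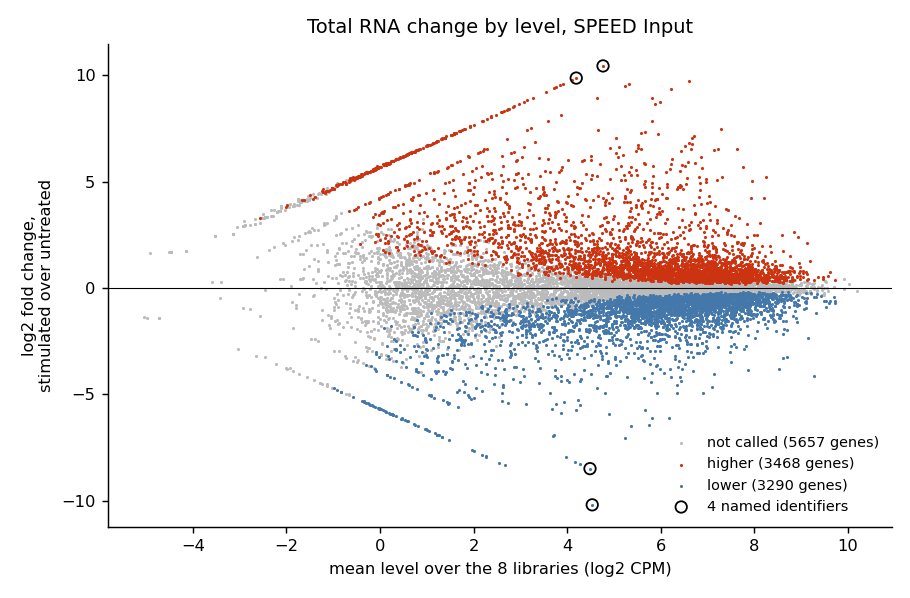
Each point is a gene, with its mean level over the 8 Input libraries (log2 CPM) on the x axis and its log2 fold change, stimulated over untreated, on the y axis. The 3468 genes called higher are red and the 3290 called lower blue. The straight outer edges are genes without a count in one of the groups, and 13 tested genes without a count in any of the 8 libraries are not drawn.

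Among the genes tested, rises outnumbered falls at low level, and the numbers were about even among abundant RNAs. Among the 1284 genes with a mean of 1 to 3 CPM over the 8 libraries, 263 rose and 141 fell. Among the 1405 genes at 3 to 10 CPM, 325 rose and 254 fell. From 30 to 100 CPM the numbers turned to 1090 up and 1215 down among 3764 genes, and above 300 CPM to 145 up and 170 down among 521. The share of genes called climbed from 25.3% below 1 CPM to 67.3% at 100 to 300 CPM, while the median size of the change fell from 2.43 to 0.48 on the log2 scale. The standard error of a gene's log2 fold change, at the median of each class, fell from 1.52 to 0.13 over the same range, so small changes could be called only among abundant genes. A filter on low counts lets a gene of very low level in only through the group where it is high, and the counts in the lowest classes are affected by that. Most groups in the fit were of stimulated cells, which favours the entry of genes that rise. In a fit of the 8 Input libraries alone, which changes the filter and the estimate of spread together, 2982 genes were higher and 2978 lower over all levels.

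Abundant genes also scaled less than in proportion to the size of a library within a group. The stimulated library of mouse 2 has more counts than that of mouse 3. Their median log2 count ratio was 0.89 for genes at 10 to 30 CPM and 0.54 for genes above 300 CPM. In untreated cells, mouse 4 over mouse 3 gave 0.32 and 0.19 for the same classes. Fold changes of the most abundant genes, with a median size of 0.39 above 300 CPM, stand beside this compression, and its part in them was not tested.

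For a large group of genes the change was limited in size, though many of these genes were called changed. The 95% interval of the fold change lay wholly within 2-fold, in either direction, for 4878 genes (39.3% of those tested) and within 1.5-fold for 2092 (16.8%). Of the 5670 genes that were not called, 2965 had their interval within 2-fold, while the interval of the others reached past 2-fold, so that a change of that size could not be told from none at this depth.

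All 4 stimulated libraries were above all 4 untreated ones for 3153 genes (25.4% of those tested) and below them for 2897 (23.3%), of which 2987 and 2701 were also called. These shares are close to the shares of called genes, 27.9% and 26.5%, and add little to them. Taken mouse by mouse on log2(CPM + 1), 2405, 2376, 2207 and 2097 genes were at least 2-fold higher in the stimulated cells of mice 1 to 4, and 2235, 1844, 2212 and 1780 were at least 2-fold lower. The 2-fold rise was present in all 4 mice for 1002 genes and in exactly 1 mouse for 1465. The 2-fold fall was present in all 4 for 742 and in exactly 1 for 1440.

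Among the genes with an adjusted p under 0.05, a mean of at least 20 CPM in the higher group and no overlap between the groups, 2400 were higher and 2359 lower, and the 2 with the largest change on each side are given by identifier. ENSMUSG00000078521 was at 0 counts in all 4 untreated Input libraries. In stimulated cells of mice 1 to 4 it stood at 46.6, 70.7, 54.2 and 46.6 CPM. It had a mean of 54.5 ± 11.4 CPM (SD, n = 4), at least 281-fold above a floor of 3 counts over the 4 untreated libraries (adjusted p = 3.56e-18, edgeR quasi-likelihood). The pattern was close to on or off in the RiboTag mice too, where 4 of 5 IL7-rested Input libraries had no count and that of mouse 1 had 1.39 CPM, against 33.4 to 38.9 CPM in the 5 stimulated ones.

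ENSMUSG00000028527 was also at 0 counts in every untreated Input library. It reached 41.5, 56.2, 33.0 and 16 CPM in stimulated cells of mice 1 to 4, a mean of 36.7 ± 16.8 CPM (SD, n = 4) and at least 189-fold above the same floor (adjusted p = 2.83e-08, edgeR quasi-likelihood). Mouse 4 was lowest, but well above all untreated Input libraries. In untreated subpolysomal RNA of mice 1 to 4 the gene had 0, 6.23, 0.404 and 0 CPM. Its log2 fold change in subpolysomal RNA was 4.21, against 9.86 in Input. In RiboTag Input it was at 0 counts in all 5 IL7-rested libraries and at 19.2 to 57.1 CPM in the 5 stimulated ones.

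ENSMUSG00000032690 had the largest fitted fall by the rule above, a rank that depends on the prior count. Untreated cells of mice 1 to 4 had 62.8, 28.8, 49.3 and 45.0 CPM, a mean of 46.5 ± 14.0 (SD, n = 4). All 4 stimulated Input libraries had 0 counts. The untreated level was at least 180-fold above a floor of 3 counts over the 4 stimulated Input libraries (adjusted p = 3.23e-07, edgeR quasi-likelihood). In stimulated subpolysomal RNA of mice 1 to 4 the gene had 2.86, 0, 0 and 1.68 CPM. The log2 fold change in subpolysomal RNA was -5.69, against -10.2 in Input. Input of cells stimulated with Tregs had 9.91, 0, 2 and 6.19 CPM in mice 1 to 4. No such fall was seen in the RiboTag mice. IL7-rested Input of mice 1 to 5 had 5.10, 3.68, 14.3, 4.77 and 0 CPM, and stimulated Input had 4.25, 3.70, 5.81, 6.93 and 13.5 CPM, so those groups overlapped and both lay below every untreated SPEED library. The change in SPEED was more negative than that in RiboTag by 10.3 on the log2 scale (adjusted p = 3.66e-05, interaction term of an edgeR quasi-likelihood fit of the 18 Input libraries). This fitted size again depends on the prior count, and without a count in stimulated SPEED Input it has no meaningful SE.

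ENSMUSG00000003545 was the other gene named for its fall. Untreated cells of mice 1 to 4 had 25.6, 51.2, 37.2 and 65.6 CPM, and the stimulated ones had 0, 0.265, 0 and 0 CPM. That is 704 counts against 1, a ratio of 529 after scaling (95% interval from counting alone 94.6 to 20900; adjusted p = 7.91e-11, edgeR quasi-likelihood). This gene was near 0 in both RiboTag groups: 1 of 5 IL7-rested libraries had a count, at 1.84 CPM, and 1 of 5 stimulated ones, at 0.366 CPM. So both of the named genes that fell had a high level in untreated SPEED cells that IL7-rested RiboTag cells lacked, while both of the named genes that rose did so in the 2 assays.

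**Figure D2:**
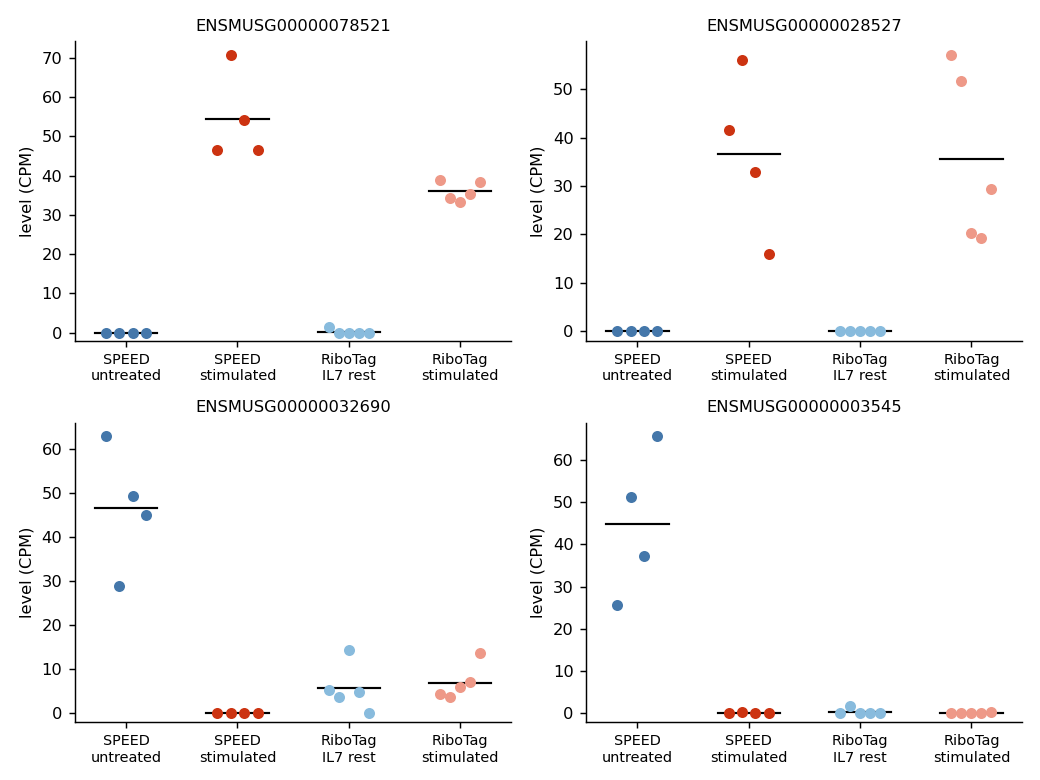
Level (CPM) of the 4 identifiers in each Input library, with 4 SPEED mice or 5 RiboTag mice per group and a line at the group mean. Both genes in the upper row are near 0 in the 2 resting groups and at 16 CPM or more in every stimulated library, and those in the lower row are high only among the untreated SPEED libraries of the groups drawn.

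Some genes had counts in only one of the conditions. Of the tested genes, 347 had no count in any of the 4 untreated libraries and 99 had none in any of the 4 stimulated libraries. Of the 347, 246 were called higher, with a median of the mean stimulated level of 2.27 CPM and a highest of 54.5 CPM. Of the 99, 60 were called lower, with a median untreated level of 2.41 CPM and a highest of 46.5 CPM. A gene with 0 counts in one group could enter the test only through its level in other groups, so the numbers called are a description. They also depended on the filter and the fit: with a minimum count of 30 in place of 10 they were 69 and 10, and in a fit of the 8 Input libraries alone, which changed the filter and the estimate of spread together, 47 and 4. With limma voom on the 8 libraries and the genes of the main fit they were 167 and 24.

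Part of these genes had counts in other RNA of the resting cells. In the polysomal RNA of the same untreated cells, 121 of the 246 had at least 1 count in some library, and in subpolysomal RNA 101 of them did. Their summed level was 64.3 to 90.9 CPM in untreated polysomal RNA and 44.8 to 81.1 CPM in untreated subpolysomal RNA. In stimulated Input of mice 1 to 4 it was 1130, 1280, 966 and 996 CPM. Cells stimulated together with Tregs had 817 to 1210 CPM in Input (n = 4), overlapping with stimulation alone.

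The same 246 genes can be read in the RiboTag mice, which took no part in their choice. Their summed level in IL7-rested Input was 94.7 to 180 CPM over the 5 mice, and in stimulated Input 1020 to 1170 CPM. The groups did not overlap, and the stimulated level was within the range of the stimulated SPEED libraries. Of the 75 of the 246 that could be tested in the fit with RiboTag, 63 were called higher there and 0 lower. Genes with no count in untreated SPEED cells pass that filter mainly through groups where they are high, so this split is partly set by the filter and is no separate support. In that fit 30.7% of all 10851 tested genes were called higher and 29.8% lower on stimulation from IL7 rest.

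The 60 genes at 0 counts in stimulated Input were not all absent from other RNA of the same cells. In stimulated polysomal RNA 35 of them had a count in some library, with a summed level of 8.96 to 13.3 CPM, and in stimulated subpolysomal RNA 38 did, with 18.9 to 29.1 CPM. Their summed level was 311, 214, 250 and 237 CPM in untreated SPEED Input of mice 1 to 4. In RiboTag it was 85.8 to 168 CPM at IL7 rest and 38.9 to 52.3 CPM in stimulated cells. SPEED cells stimulated with Tregs had 25.8 to 45.0 CPM. Of the 15 that could be tested in RiboTag, 8 were called lower and 0 higher, again after a filter that favours groups where a gene is high.

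The polysomal and subpolysomal RNA of the same mice gave changes of similar extent. In polysomal RNA, 3546 genes were higher (28.5%) and 3388 lower (27.3%) in stimulated than in untreated cells, and in subpolysomal RNA 3418 (27.5%) and 3042 (24.5%). Of the 3468 genes higher in Input, 2411 (69.5%) were also called higher in both fractions and 275 in neither. Of the 3290 lower ones, 2233 (67.9%) were called lower in both and 314 in neither. A call in the opposite direction was made for 3 of the higher genes in polysomal and 18 in subpolysomal RNA, and for 0 of the lower genes in either. These libraries come from the same cells as Input and are not independent of it.

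Genes of the cell cycle were looked at through the marker pairs of the scran package, which name mouse genes by Ensembl identifier. Each pair holds 2 genes of which the first is expected above the second in cells of that phase: G1, before DNA replication, S, during it, or G2M, from its end to division. The pairs were trained elsewhere on cycling embryonic stem cells, and they were taken up after other results of these data were known, so they are described without a test. The share of untied G1 pairs with the first gene at the higher count was 56.4% to 58.3% in the 4 untreated libraries and 36.5% to 40.2% in the 4 stimulated ones. For S pairs it was 53.0% to 54.3% against 59.7% to 60.8%, and for G2M pairs 37.9% to 39.3% against 44.8% to 49.2%. The 2 groups did not overlap for any of the 3 phases. The G1 order was thus less often met after stimulation, and the S and G2M orders more often.

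In the RiboTag mice at IL7 rest the G1 share was 55.6% to 58.3%, the S share 54.0% to 55.5% and the G2M share 37.3% to 39.1%, each overlapping with untreated SPEED cells. In stimulated RiboTag cells the G1 share was 34.0% to 38.6%, the S share 57.8% to 58.9% and the G2M share 48.6% to 53.0%. The S shares of the 2 stimulated groups did not overlap, and those of RiboTag were lower. With Tregs the stimulated SPEED cells had G1 shares of 36.9% to 42.8% and G2M shares of 42.8% to 49.1% (n = 4), overlapping with those of stimulation alone.

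**Figure D3:**
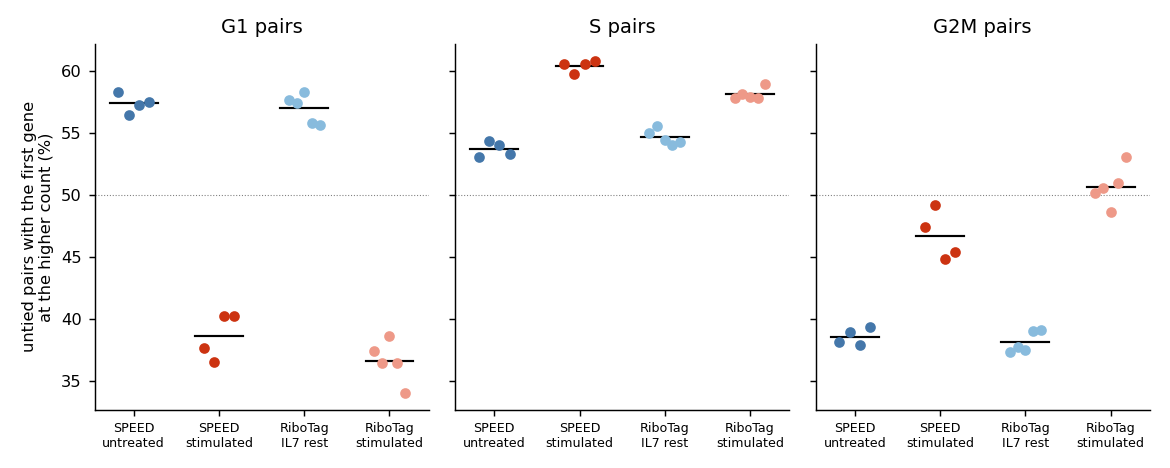
Share of untied marker pairs (%) in which the first gene of the pair had the higher count, for pairs of G1, S and G2M, in each Input library of untreated and stimulated SPEED cells (4 mice each) and IL7-rested and stimulated RiboTag cells (5 mice each), with lines at group means. The y axis does not start at 0, and the dotted line marks the value of 50.

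By single genes, the lists moved in both directions. Of 107 genes that stand first and never second in G2M pairs 101 passed the filter, and of these 48 were higher (47.5%), 23 lower and 30 not called, with a median log2 fold change of 0.55. Of 165 such S genes 154 passed, and 69 were higher (44.8%), 37 lower and 48 not called, with a median of 0.32. Of 89 G1 genes 81 passed, and 30 were higher (37.0%), 27 lower and 24 not called, with a median of 0.07. For all tested genes the shares were 27.9% and 26.5% and the median 0.01. The lists share genes, and 51, 93 and 52 tested genes were on the G2M, S or G1 list alone. Of these, 26, 40 and 18 were higher and 13, 24 and 18 lower. Fitted log2 fold changes of single genes ran from -4.05 to 9.59 among the G2M genes, from -3.63 to 8.55 among the S genes and from -3.46 to 7.06 among the G1 genes.

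The spread between replicate mice was estimated within each group. The biological coefficient of variation, edgeR's estimate of the relative spread between mice beyond counting error, was 0.324 over the 4 untreated Input libraries and 0.159 over the 4 stimulated ones. In untreated polysomal and subpolysomal RNA it was 0.203 and 0.344, and in stimulated 0.163 and 0.199. In RiboTag Input it was 0.228 at IL7 rest and 0.152 after stimulation (5 mice each). These values were not tested against each other. Among the 9150 genes with a mean of at least 10 CPM over the 8 libraries, 5282 (57.7%) had the larger SD of log2(CPM + 1) in untreated cells, with median SDs of 0.224 untreated and 0.190 stimulated. For the genes that rose the medians were 0.233 and 0.159, and for those that fell 0.205 and 0.225.

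Among untreated libraries, mice 1 and 2 held the most genes far from the others. In the untreated library of mouse 1, 161 of 8829 genes lay at least 2-fold above the median of the other 3 and 273 at least 2-fold below it. In mouse 2 they numbered 165 and 327, against 79 and 102 in mouse 3 and 102 and 113 in mouse 4. Among the stimulated libraries no mouse had more than 75 genes above and 141 below. The deviations were only partly shared with other RNA of the same untreated mouse: the 161 genes high in mouse 1 had a median deviation of 0.37 log2 units in its polysomal and 0.40 in its subpolysomal RNA, and the 327 low in mouse 2 had -0.29 and -0.37. Other sets were closer to 0: the 273 low in mouse 1 had -0.23 and -0.11, the 165 high in mouse 2 had 0.17 and 0.20, and the 102 high in mouse 4 had -0.07 and -0.02. Leaving out the untreated library of mouse 1 gave 3322 higher and 3127 lower genes, and leaving out that of mouse 2 gave 3526 and 3003.

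Genes called in SPEED were mostly called in the same direction in the RiboTag mice. Of the 515 genes with a rise of 16-fold or more in SPEED, 317 could be tested in RiboTag. Of these 317, 289 (91.2%) were called higher there and 0 lower. The share was 72.8% of 1620 genes for rises under 2-fold. Of the falls, 66.5% of 1616 genes with a fall under 2-fold were called lower in RiboTag, 75.4% of 1076 from 2-fold to 4-fold, and 62.0% of 92 with a fall of 16-fold or more, where 5 were called higher. These shares were not tested against each other, and the genes had to pass a filter on counts in the 18 Input libraries. Of the 157 genes with a fall of 16-fold or more, 92 passed it. Genes near 0 in 1 SPEED group pass mainly through groups where they are high. The shares for the largest changes are therefore partly set by the filter and are no separate support.

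The sizes were as follows. Over the 317 genes with the largest rises, the median log2 fold change was 5.54 in SPEED, or 5.11 with genes at 0 counts set to their bound, and 4.75 in RiboTag. Over the 92 genes with the largest falls it was -4.99 in SPEED, or -4.69 at the bound, and -2.04 in RiboTag. The classes were formed on SPEED values, which favours a smaller change in RiboTag for rises and falls alike.

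**Figure D4:**
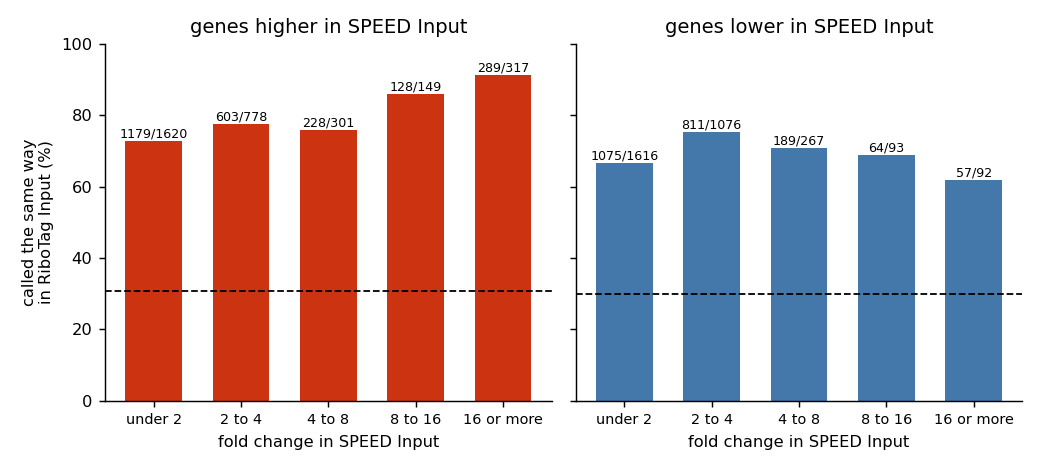
For genes called higher (left) or lower (right) in SPEED Input, grouped by fold change, the bars give the share (%) called the same way in RiboTag Input, with the numbers of genes above them. Dashed lines mark the shares of all 10851 tested genes called in that direction in RiboTag, 30.7% and 29.8%. The right-hand bars show no climb with the size of the fall.

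The difference between the assays was tested gene by gene as an interaction over the 18 Input libraries. Of 10851 genes, 718 (6.62%) had a more positive stimulation change in SPEED and 901 (8.30%) a more negative one (edgeR quasi-likelihood, adjusted p under 0.05). Among the 1619 that differed, 240 rose in both assays and 313 fell in both, to unequal extents. Another 273 fell in SPEED and were not called in RiboTag, 172 rose in SPEED alone, 204 rose and 238 fell in RiboTag alone, and 11 were called in neither. Opposite calls were made for 168: 121 genes fell in SPEED and rose in RiboTag, and 47 did the reverse.

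For 1199 of these genes the resting groups lay further apart than the stimulated groups. Over the 1619, the median size of the log2 difference between the assays was 0.80 between untreated and IL7-rested cells and 0.33 between the stimulated groups, and 1199 are 74.1% of them. Over all 10851 genes the medians were 0.35 and 0.23, and the resting groups were further apart for 63.1%. Of the 901 genes with the more negative change in SPEED, 850 were higher in untreated than in IL7-rested cells, which their definition favours. For the 121 genes with a fall in SPEED and a rise in RiboTag, median levels were 99.3 CPM untreated and 40.3 CPM stimulated in SPEED, against 35.4 CPM at IL7 rest and 66.0 CPM stimulated in RiboTag. The kind of rest, the genotype, the assay and the sequencing run differ together between the 2 sets of mice, and which of them goes with these differences cannot be told apart.

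Some genes had a large change in SPEED and little in RiboTag. Over all 10851 genes of the fit, 1664 were called at least 2-fold higher in RiboTag and 1457 at least 2-fold lower. Of 472 genes at least 8-fold higher in SPEED in that fit, 442 were at least 2-fold higher in RiboTag and 30 were within 2-fold there. Those 30 had median levels of 0.201 CPM untreated and 6.56 CPM stimulated in SPEED, and 3.87 and 5.18 CPM in RiboTag. Of 190 genes at least 8-fold lower in SPEED, 132 were at least 2-fold lower in RiboTag, 43 were within 2-fold and 15 were at least 2-fold higher. Those 43 had median levels of 47.4 CPM untreated and 2.47 CPM stimulated in SPEED, and 7.04 and 5.11 CPM in RiboTag. In both cases the untreated SPEED level stood furthest from the other 3 medians. Choosing genes with a large SPEED change and a small RiboTag change favours a SPEED group that stands apart, so this is a description. The difference between the assays was called for 22 of the 30 and 38 of the 43, which their choice on the same fit favours. The 472 genes had a median of 0.886 CPM in untreated cells. Genes at such levels enter the fit mainly through groups where they are high, which favours a rise in RiboTag too.

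**Figure D5:**
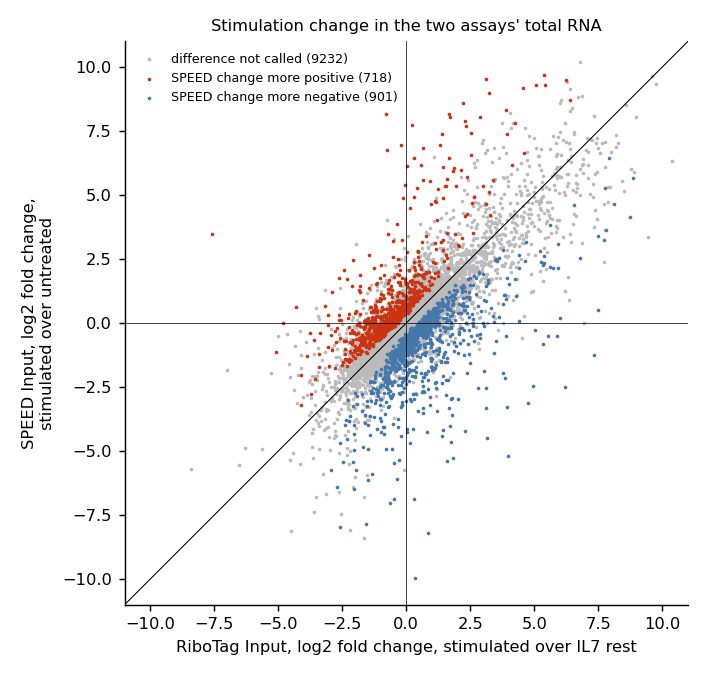
Each point is 1 of 10851 genes, with its log2 fold change in RiboTag Input (stimulated over IL7 rest) on the x axis and in SPEED Input (stimulated over untreated) on the y axis. The line marks equal change, and colours mark the 718 genes with a more positive and the 901 with a more negative change in SPEED.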

How the data were processed

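Counts per gene were deposited by the authors as whole numbers, 1 table per assay with 53465 Ensembl identifiers. Per the submitters' processing notes the build was GRCm38, with HTSeq 0.4.1, Picard 1.134, FastQC 0.11.3 and SAMtools 1.2, while the sources used here name no aligner and do not say whether duplicate reads were removed. The SMART-Seq kit used leaves reads without strand, and reads of a gene and of its antisense partner can then be mixed. The RiboTag counts have a further 16 columns that match no sample, left unused.

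All 44 SPEED libraries (without the later of a pair with the same title) were fitted together (edgeR 4.0.16, R 4.3.3) after filterByExpr at a minimum count of 10 and a minimum total of 15, with TMM, robust quasi-likelihood, two-sided tests, Benjamini-Hochberg adjustment at 0.05. SE was taken as the log2 change divided by the square root of F. The difference between assays used 1 fit of 18 Input libraries. RiboTag CPM come from a fit of its own 30 libraries, scaled separately. Alternatives used DESeq2 1.42.0 and limma 3.58.1; cell-cycle pairs came with scran 1.30.0. Libraries of a group differed by at least 4.10 in chi-square per degree of freedom, above the 1 of repeat counts, so none was a copy. The fits were also run on simulated counts, with the same spread in every group. The groups here differed in spread, so that run is no check on unequal spread.

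Libraries with 1 number come from 1 mouse, as the labels say, and are paired by it. Deviations of stimulated and untreated Input from their group means correlated by 0.0143 to 0.0298 within a mouse and -0.0426 to 0.0276 between mice over 9150 genes. The values within a mouse were all positive, and those between mice had both signs. All were small and the ranges overlapped, so any trace of the pairing is weak here. The main fit has no block. Numbered mice are separate animals.

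The members, lists and tests were chosen with earlier results of these data known. Planned gene lists, cell type markers and promoter motifs need gene symbols and were not applied. Identifiers named had an adjusted p under 0.05, at least 20 CPM in the higher group and no overlap, with the 2 largest rises and falls printed, and terms on symbols dropped.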

Additional observations from a re-analysis of the deposited data

Results flagged for a closer look

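The stimulation change differed between SPEED and RiboTag Input for 1619 genes by the interaction test (edgeR quasi-likelihood, adjusted p under 0.05). For ENSMUSG00000032690 the difference of the log2 fold changes was -10.3, with every untreated SPEED library above every IL7-rested RiboTag library.

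Within groups of 4 or 5 libraries, 6 of 40 groups examined held a library whose gap to the nearest other passed Dixon's 95% critical value. Chance gives about 1 in 20, a rate that does not apply to 4 of the 6, where a single library had a count in a group otherwise at 0 and the ratio is fixed. The summed CPM of the genes that rose, as a percentage, was 21.22% in untreated mouse 1, below the other 3 untreated libraries by a small margin. This percentage includes the TMM factors, which were 0.9975, 1.016, 0.9706 and 0.9925 for untreated mice 1 to 4. The factor of mouse 3 was the lowest, which raises its value. The gap of mouse 1 is shown for scaled values only and was not tested on plain shares of counts. ENSMUSG00000003545 had a count in single libraries of groups otherwise at 0, namely 0.265 CPM in stimulated SPEED mouse 2, 1.84 CPM in IL7-rested RiboTag mouse 2 and 0.366 CPM in stimulated RiboTag mouse 5. ENSMUSG00000078521 likewise had 1.39 CPM in IL7-rested RiboTag mouse 1. The share of S pairs with the first gene higher was 58.9% in stimulated RiboTag mouse 2, above the other 4 mice.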

How the results depend on the processing

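The number of changed genes, 6758, ranged from 5752 to 6945 over 10 other settings (block, 8 libraries alone, scaling, filter, DESeq2, the repeated title, limma voom). The limma fit with 1 weight per group was chosen after seeing the data and gave 3473 higher and 3005 lower. With the mouse as a replicate block the counts were 3579 higher and 3366 lower, and the paired fit changed no call of a named gene. Leaving out a mouse or 1 of the 8 libraries gave 5715 to 6529. RLE scaling gave 3638 higher and 3106 lower, with the median log2 fold change at 0.04. The log2 fold changes of the 4 identifiers kept their direction and an adjusted p under 0.05 in all 22 alternatives. The size of p depended on the libraries fitted. With the 8 Input libraries alone and a replicate block, the adjusted p was 0.000112 for ENSMUSG00000078521 and 0.000243 for ENSMUSG00000028527 (edgeR quasi-likelihood). For ENSMUSG00000032690 and ENSMUSG00000003545 it was 0.000171 and 1.5e-05 in that fit. The number of genes that differed between the assays, 1619, ranged from 1346 to 1916 over 5 settings (1433 with the replicate block) and from 1191 to 1498 with a mouse left out. ENSMUSG00000003545 was not called different between the assays by the edgeR quasi-likelihood interaction test (adjusted p = 0.131). It was by DESeq2 (adjusted p = 0.000462) and without RiboTag mouse 2 (adjusted p = 0.0252, edgeR), while without RiboTag mouse 5 the adjusted p was 0.967 (edgeR), the highest of 14 alternatives. The cause was not tested. Counts of genes at 0 in one group moved most, to 47 and 4 with the 8 libraries alone and 377 and 121 without a filter. With DESeq2 and limma the genes lower at 0 counts numbered 35 and 24. Depth limits calls of low genes, with a median SE of 1.52 on the log2 scale below 1 CPM.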
